A study of Mus musculus with 2 samples.

Results

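The genes described here are the secreted Wnt ligands of the mouse, their Frizzled and Lrp receptors, the R-spondins with their receptor Lgr5, the secreted antagonists of the Sfrp, Dkk and Wif types, and the effectors that carry the signal to the nucleus. They were chosen by gene name: every name of the Wnt, Fzd, Sfrp, Dkk and Rspo families on the array except *Wnt1* and *Wnt8b*, together with *Lrp5*, *Lrp6*, *Axin1*, *Axin2*, *Ctnnb1*, *Lef1*, *Tcf7*, *Tcf7l1*, *Tcf7l2*, *Wif1* and *Lgr5*. This gave 50 members among 37071 gene names with a usable probe on both arrays. The members are covered by 80 probes, and 23 members have several probes while 27 have 1.

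RNA of the E10.5 brain from luxoid mice (*Plzf* lu/lu) was set against RNA of the same stage from wild type mice, labelled C57BL/6, on 2 two-colour Agilent arrays. The *Plzf* (*Zbtb16*) protein is cut short in luxoid mice by a point mutation early in the coding sequence, an allele of spontaneous origin. The labels call the tissue brain and the study's methods name forebrain and midbrain. Each array held 1 sample of each genotype, and the labels call the arrays biological replicates without saying how many embryos were in a sample. The dyes were not swapped, with Cy3 always on wild type RNA and Cy5 on the mutant RNA, so that a dye effect on a probe cannot be told apart from the genotype.

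Wnt proteins are lipid-bearing signals that bind a Frizzled receptor together with Lrp5 or Lrp6, and in the canonical branch this stops the Axin complex from destroying beta-catenin, which then acts with Tcf and Lef factors on target genes. R-spondins keep Frizzled receptors on the cell surface, while Sfrp and Wif proteins bind the ligands. Some Dkk proteins act on the Lrp co-receptors, and all Dkk genes were listed here by name, the divergent *Dkk3* among them. In the early brain, Wnt signals from the dorsal midline, the cortical hem and the midbrain-hindbrain boundary pattern the neural tube and keep progenitors dividing.

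At this stage 7 of the members bright enough to test differed by more than 1.3-fold on each array, with a shared direction. *Ctnnb1*, *Tcf7l2*, *Rspo3* and *Dkk3* were higher in *Plzf* lu/lu, and *Fzd10*, *Rspo1* and *Sfrp2* were lower. No ligand was among them. The mean log2 ratio (mutant over wild type) lay between 0.63 and 0.69 for the higher members and between -0.70 and -0.48 for the lower members. The calls of *Ctnnb1*, *Tcf7l2* and *Dkk3* were read from the brightest probe of each gene and were lost with the mean over its probes. The channel signals, which are not normalized between arrays, did not overlap between the genotypes in any of the 7. These members were picked by ratios of the same signals, so the lack of overlap is no separate support for them. The RNA came from bulk tissue, in which fewer cells of a type and less RNA per cell cannot be told apart.

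A gene was read from its brightest probe and tested when each of the 4 channels had a processed signal over 200 and a signal-to-noise ratio of at least 5. Many members are dim at this stage by that measure: 25 members passed and 25 did not. Of those that passed, 4 members (16%) were higher beyond 1.3-fold on both arrays, where 2.58% of the 10600 genes tested were, and 3 members (12%) were lower, where 0.736% of all genes were. Another 8 went beyond 1.3-fold on 1 array only, and 10 stayed within it on both. The sign of the ratio was shared by both arrays in 17 of the 25 (68%), beside 72.6% of all genes tested. The median of the mean log2 ratio was 0.11 over the members and 0.01 over all genes, and the median of its size was 0.31 and 0.13. The members' median was 0.01 on array 1 alone, 0.07 on array 2 alone and 0.01 with the mean over probes. With a filter that asks only for signal well above background, 47 members could be read, of which 6 were higher and 4 lower, beside 2.52% and 2.07% of 23281 genes.

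Precision is limited by the number of arrays, which leaves 1 residual degree of freedom, and an exact two-sided sign-flip test over 2 arrays cannot go below p = 0.5. By limma, which pools the spread over all genes, 0 members had an adjusted p under 0.05, beside 3 of all genes (0.0283%), and the smallest adjusted p of a member was 0.051. At an unadjusted limma p under 0.05 there were 12 members, 8 higher and 4 lower, beside 27.8% of all genes. The 7 members beyond 1.3-fold all had adjusted p between 0.051 and 0.0586, and over all genes beyond 1.3-fold the largest was 0.087. With the deposited ratios, within 0.005 of those used for the members, limma gave all 7 an adjusted p of 0.198. Under the well-above-background filter it was 0.251 or 0.252.

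**Figure D1:**
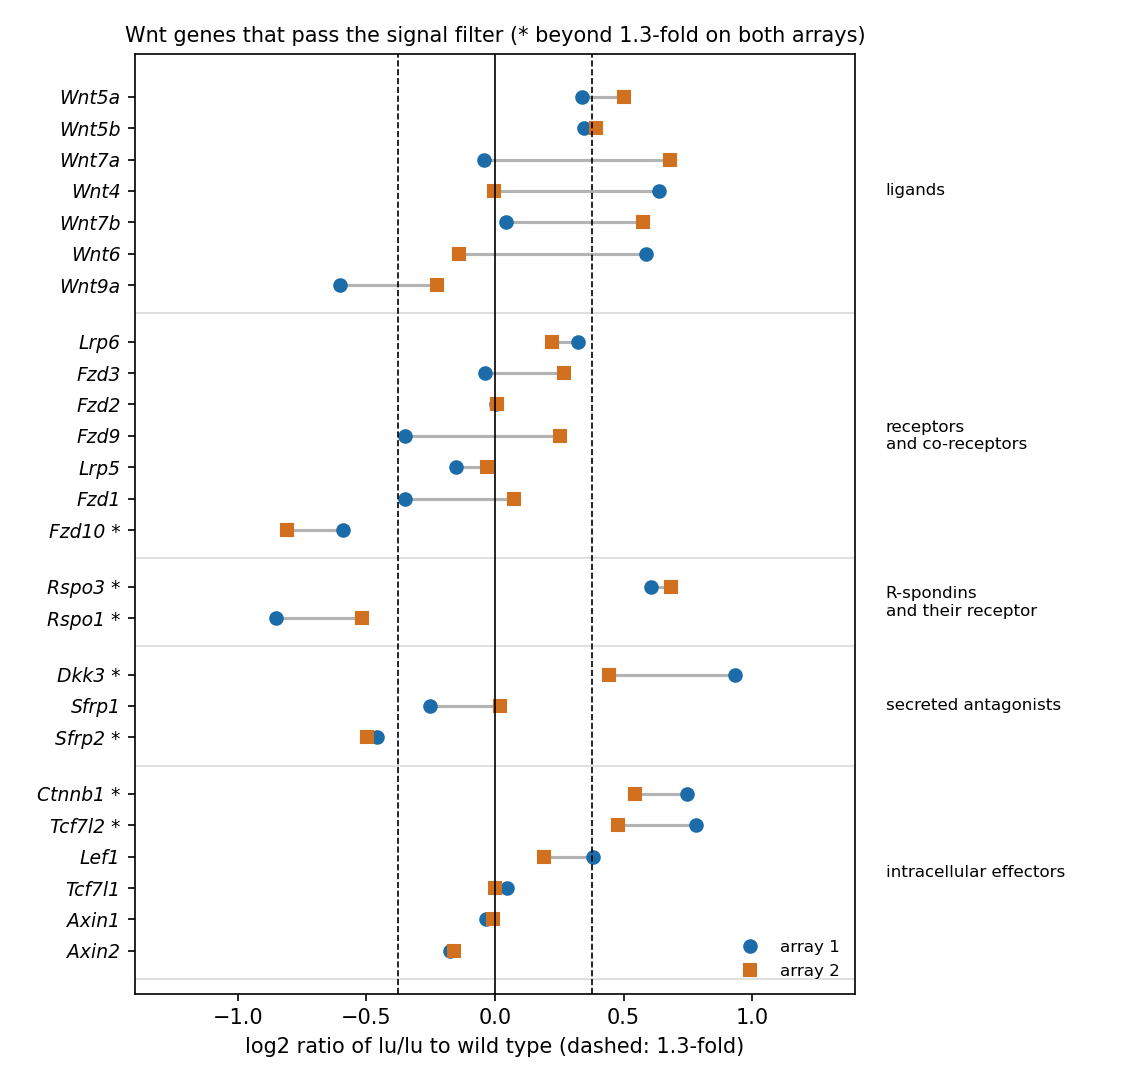
Log2 ratio, mutant over wild type (horizontal axis), on each array for the members that passed the signal filter, grouped by role (vertical axis), with dashed lines at 1.3-fold. The 7 members beyond the lines on both arrays are *Ctnnb1*, *Tcf7l2*, *Rspo3* and *Dkk3* on the right and *Fzd10*, *Rspo1* and *Sfrp2* on the left. Centring on all gene spots moved the median of all genes tested by 0.55 and put the mean of *Sfrp2* at 0.07. Relative to the median of all genes under that scaling, *Sfrp2* was at -0.48.

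*Zbtb16* itself, the gene of the luxoid mutation, had processed signals of 433 and 546 in wild type and 172 and 211 in *Plzf* lu/lu on arrays 1 and 2, log2 ratios of -1.33 and -1.37. The channel signals are fluorescence intensities after the scanner software's background subtraction and dye correction, and the ratio within an array is what compares the genotypes. Its *Plzf* lu/lu signal on array 1 missed the filter of 200.

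Of the 17 ligands 7 passed the filter, and none of these was beyond 1.3-fold on both arrays. The closest were *Wnt5a* and *Wnt5b*, known from the non-canonical branch. *Wnt5a*, which directs cell movement and outgrowth, had log2 ratios of 0.34 and 0.50, and *Wnt5b*, its close relative, had 0.35 and 0.39. Both lay just inside the threshold of 0.379 on array 1. The other probes of *Wnt5a* gave 0.48 and 0.65, and 0.27 and 0.59, all in the same direction, while the other probe of *Wnt5b* gave -0.10 and 0.23. When the mean of the arrays was asked to exceed 1.3-fold in place of each array, *Wnt5a* joined the higher members and *Wnt9a* the lower ones.

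*Wnt7a* and *Wnt7b*, ligands of the forebrain neuroepithelium, differed on array 2 only: *Wnt7a* had log2 ratios of -0.04 and 0.68 and *Wnt7b* of 0.04 and 0.58. Their other probes showed the same split, with -0.12 and 0.79 for *Wnt7a* and -0.18 and 0.48 for *Wnt7b*. *Wnt4* and *Wnt6*, ligands known from epithelia, showed the opposite split, with 0.64 and -0.00 for *Wnt4* and 0.59 and -0.14 for *Wnt6*. *Wnt9a* was lower on both arrays, at -0.60 and -0.23, and passed 1.3-fold on array 1. Centred on all gene spots, its mean became 0.06, which is -0.50 relative to the median of all genes under that scaling.

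*Wnt3a*, the ligand of the cortical hem and dorsal midline, had the largest mean log2 ratio in size of the 15 ligands with signal well above background, although it was too dim to pass the filter in any channel. Its signals were 125.5 and 117 in wild type and 50.03 and 53.9 in *Plzf* lu/lu. Both *Plzf* lu/lu values are under both wild type values, with log2 ratios of -1.33 and -1.11. Under the well-above-background filter its adjusted limma p was 0.251, with 0.505 when no filter was used, and its mean of -1.22 was -0.86 after background correction by normexp with loess. It lies on chromosome 11, 85.2 kb from *Wnt9a* by their probes in mm9, and both neighbours were lower on both arrays. Another pair of neighbouring ligands on that chromosome, *Wnt9b* and *Wnt3*, 88.5 kb apart, had ratios of 0.36 and 0.85 and of 0.22 and 0.16.

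The ligands that failed the filter in all 4 channels were *Wnt2*, *Wnt2b*, *Wnt3*, *Wnt3a*, *Wnt8a*, *Wnt9b*, *Wnt10a*, *Wnt10b*, *Wnt11* and *Wnt16*. *Wnt2b* and *Wnt16* were well above background in every channel but wild type on array 1, and their signals were between 7.743 and 14.2. *Wnt10a*, which lies 19.1 kb from *Wnt6*, had ratios of 0.26 and -0.44, the same order of the arrays as *Wnt6*.

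Among the receptors, *Fzd10* (NM_175284, probe at chr5:129109798-129109857 of mm9), a Frizzled of the dorsal neural tube, was lower in *Plzf* lu/lu. Its signals were 958 and 1248 in wild type and 636 and 713 in *Plzf* lu/lu. Every *Plzf* lu/lu value lay under every wild type value, with log2 ratios of -0.59 and -0.81, a mean of -0.70 (SD 0.15, n = 2) and an adjusted limma p of 0.051. Of the 12 receptors and co-receptors 7 passed, and *Fzd10* was the only one of these beyond 1.3-fold on both arrays. It was also beyond 1.5-fold on both.

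The other Frizzled genes and the co-receptors that passed stayed inside 1.3-fold on both arrays. The log2 ratios were -0.35 and 0.07 for *Fzd1*, 0.01 on both arrays for *Fzd2*, -0.04 and 0.27 for *Fzd3*, and -0.35 and 0.25 for *Fzd9*. The Lrp co-receptors differed little too, with -0.15 and -0.03 for *Lrp5* and 0.32 and 0.22 for *Lrp6*. *Fzd5*, *Fzd6*, *Fzd7* and *Fzd8* failed in all 4 channels. *Fzd4* passed only in *Plzf* lu/lu on array 1, where its signal was 214.

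The R-spondins, which strengthen Wnt signals, differed in opposite directions. *Rspo3* (NM_028351, probe at chr10:29172930-29172989) gave 638 and 523 in wild type and 971 and 841.5 in *Plzf* lu/lu. Both *Plzf* lu/lu values are above both wild type values, with log2 ratios of 0.61 and 0.69, a mean of 0.65 (SD 0.06, n = 2) and an adjusted limma p of 0.051. *Rspo1* (NM_138683, probe at chr4:124686270-124686329) gave 2918 and 2453 in wild type and 1617 and 1713 in *Plzf* lu/lu. Here the wild type values are the high ones on both arrays, with log2 ratios of -0.85 and -0.52, a mean of -0.68 (SD 0.24, n = 2) and an adjusted limma p of 0.0516.

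The dimmer probe of *Rspo3* pointed the same way, at 0.29 and 0.56, and *Rspo3* was the only member passing the filter that was higher beyond 1.5-fold on both arrays. *Rspo2* failed the filter only in wild type on array 2, with log2 ratios of 0.11 and 0.86. *Rspo4* and *Lgr5* failed in all 4 channels. *Lgr5*, a receptor of the R-spondins and a mark of stem cells in several tissues, had signals of 19.6 and 42.6 in wild type and 39.4 and 59.6 in *Plzf* lu/lu. The wild type value of array 2 exceeds the *Plzf* lu/lu value of array 1, so the groups overlap. Its log2 ratios were 1.01 and 0.48, and its mean of 0.75 became -0.07 with normexp centred on the genes that passed, a scaling chosen after seeing the data.

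Of the 9 members listed by name as secreted antagonists, 3 passed and 2 of these were beyond 1.3-fold, again in opposite directions. *Sfrp2* (NM_009144, probe at chr3:83577864-83577923), which binds Wnt ligands outside the cell, gave 947 and 1157 in wild type and 689 and 819.9 in *Plzf* lu/lu. Both *Plzf* lu/lu values are the lower ones, and the arrays gave close log2 ratios of -0.46 and -0.50, with a mean of -0.48 (SD 0.03, n = 2) and an adjusted limma p of 0.0518. *Sfrp1*, its relative, had -0.25 and 0.02. *Dkk3* (NM_015814, probe at chr7:119259556-119259615), a divergent member of the Dickkopf family, gave 239.5 and 335 in wild type and 457 and 455 in *Plzf* lu/lu. The *Plzf* lu/lu values are close to each other and above both wild type values, with log2 ratios of 0.93 and 0.44, a mean of 0.69 (SD 0.35, n = 2) and an adjusted limma p of 0.0586.

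*Wif1*, which binds Wnt ligands outside the cell, failed the filter in all 4 channels but was well above background in each. Its signals were 32.6 and 24.8 in wild type and 85.5 and 98.5 in *Plzf* lu/lu. The groups do not overlap, and the log2 ratios of 1.39 and 1.99 gave the largest mean of any member, 1.69. The size of its mean moved with the processing. It was 1.08 with normexp and loess, 1.23 with normexp centred on all gene spots and 0.69 with normexp centred on the genes that passed. These settings change the background correction and the scaling together, and which of them moved the mean was not tested. The adjusted limma p was 0.251 under the well-above-background filter and 0.505 with none. *Sfrp4*, *Sfrp5*, *Dkk1*, *Dkk2* and *Dkk4* failed in all 4 channels, and *Sfrp4* was well above background in every channel but wild type on array 1.

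Of the 7 effectors 6 passed, and 2 of these were higher beyond 1.3-fold. *Ctnnb1* (NM_007614, probe at chr9:120869274-120869333), which encodes beta-catenin, gave 4273 and 4444 in wild type and 7170 and 6477 in *Plzf* lu/lu. The *Plzf* lu/lu signal was the higher on each array, with log2 ratios of 0.75 and 0.54, a mean of 0.65 (SD 0.14, n = 2) and an adjusted limma p of 0.051. Its other passing probe gave -0.14 and 0.01, and the mean over its probes was 0.28. *Tcf7l2* (NM_009333, probe at chr19:56007586-56007645), a DNA-binding partner of beta-catenin, gave 508 and 612 in wild type and 872 and 852 in *Plzf* lu/lu. Again every *Plzf* lu/lu value is above every wild type value, with log2 ratios of 0.78 and 0.48, a mean of 0.63 (SD 0.21, n = 2) and an adjusted limma p of 0.0518.

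The other Tcf and Lef factors differed less. *Lef1* had log2 ratios of 0.38 and 0.19 and *Tcf7l1* had 0.05 and -0.00, while *Tcf7* failed the filter in all 4 channels. *Axin2*, both a brake on the pathway and its best-known general target gene, had -0.17 and -0.16, within 1.3-fold on both arrays, and *Axin1* had -0.04 and -0.01. With the GC trend removed, the mean of *Axin2* was -0.33. Centred on all gene spots, the mean of *Axin2* was 0.28, which is -0.27 relative to the median of all genes under that scaling.

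**Figure D2:**
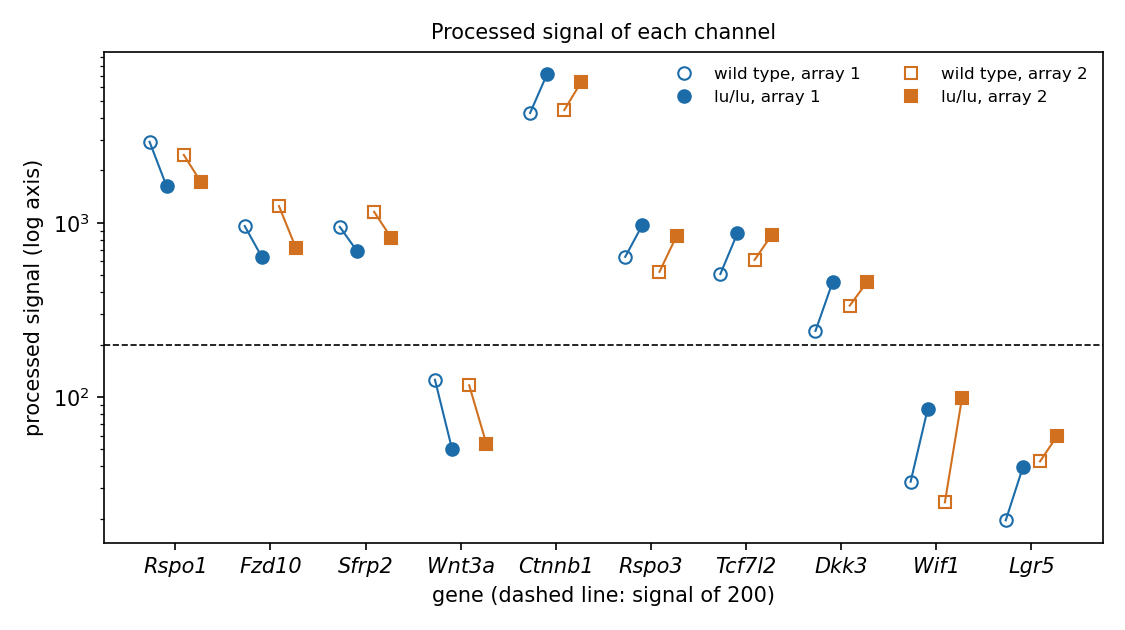
Processed signal (log scale, fluorescence intensity) in each channel of members beyond 1.3-fold on both arrays, wild type and *Plzf* lu/lu joined within each array. Of these, 7 passed the signal filter. *Wnt3a*, *Lgr5* and *Wif1* failed it in all 4 channels and are not among the 7. They were beyond 1.3-fold under the well-above-background filter, *Wnt3a* lower and *Lgr5* and *Wif1* higher. The lines of *Ctnnb1*, *Tcf7l2*, *Rspo3* and *Dkk3* go up to *Plzf* lu/lu on both arrays, as for *Rspo3* from 638 to 971 and from 523 to 841.5. Those of *Fzd10*, *Rspo1* and *Sfrp2* go down. Centred on all gene spots, the mean log2 ratio of *Sfrp2* was 0.07, which is -0.48 relative to the median of all genes under that scaling.

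How firmly these values stand differs between the directions. *Fzd10*, *Rspo1* and *Sfrp2* each have a single probe. The 4 higher members have more, and their probes did not all give the same ratio. Of the probes of *Ctnnb1*, a dimmer one beside the pair given above had 0.42 and 0.11. For *Tcf7l2* the other probes gave 0.66 and 0.39, -0.09 and -0.21, and 0.17 and 0.27. The first of these, too dim for the filter but well above background, was also beyond 1.3-fold on both arrays. *Dkk3* had 0.39 and 0.17 at its second probe, while the third was not well above background, at -0.95 and -0.99. With the mean over probes in place of the brightest, *Ctnnb1* at 0.28, *Tcf7l2* at 0.30 and *Dkk3* at -0.0023 were no longer beyond 1.3-fold, and *Rspo3* was. With that mean 22 members passed the signal filter, and *Tcf7l2* and *Dkk3* did not. The value of *Dkk3* takes in that dim probe, with signals between 1.435 and 3.297, and its other probes were higher in *Plzf* lu/lu on both arrays. What the probes of a gene differ in was not tested.

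**Figure D3:**
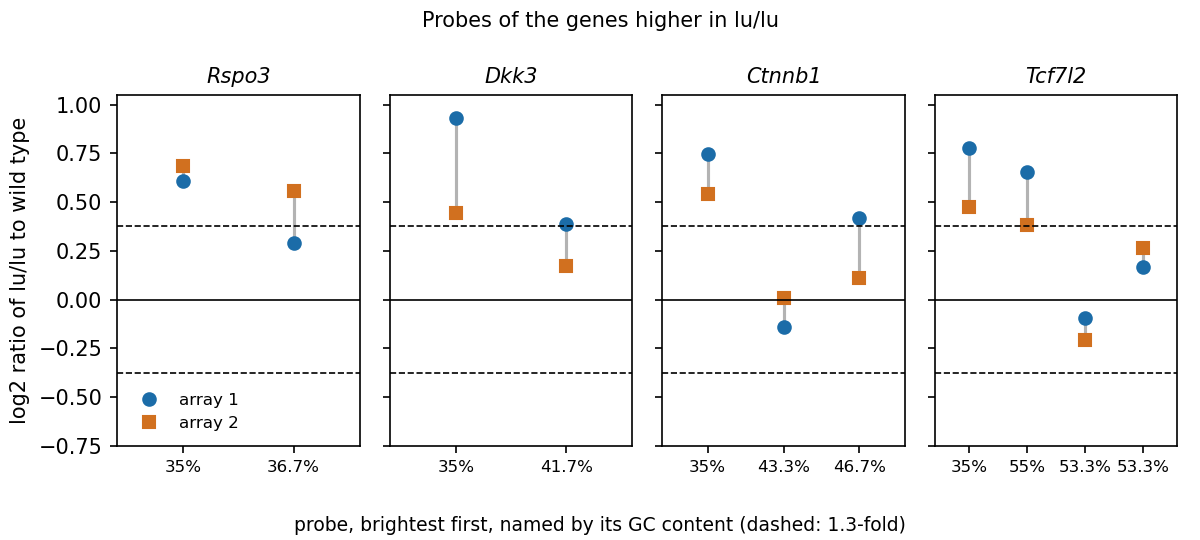
Log2 ratio, mutant over wild type (vertical axis), on each array (colours) for every probe well above background of *Rspo3*, *Dkk3*, *Ctnnb1* and *Tcf7l2*, ordered by brightness and labelled by GC content in percent, with a dashed line at 1.3-fold. The brightest probe of each has 35% GC and lies above the line on both arrays, while the next probe of *Ctnnb1* gave -0.14 and 0.01.

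These probes also share a base composition. The brightest probes of *Rspo3*, *Dkk3*, *Ctnnb1* and *Tcf7l2* all have 35% GC, and those of *Fzd10*, *Rspo1* and *Sfrp2* have 38.3%, 41.7% and 45%. Over the genes tested the log2 ratio drifted with GC content, and at 35% the trend stood at 0.14 on array 1 and 0.04 on array 2. Of the 2472 genes read at 35% GC, 3.8% were higher and 0.445% lower beyond 1.3-fold. With the trend removed, the means were 0.56 for *Ctnnb1*, 0.60 for *Dkk3*, 0.56 for *Rspo3*, 0.54 for *Tcf7l2*, -0.74 for *Fzd10*, -0.69 for *Rspo1* and -0.45 for *Sfrp2*, and all 7 stayed beyond 1.3-fold on both arrays.

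The scaling of the arrays bears on direction. Normexp with the median of all gene spots set to 0 moved the median of all genes tested by 0.55, so that 16 members were higher and 0 lower, where 63.2% of all genes tested were higher. By limma 20 of 25 members had an adjusted p under 0.05 there, as did 9643 of 10600 genes, so these counts are no result about the members. Under it *Fzd10* stood at -0.16, *Rspo1* at -0.13 and *Sfrp2* at 0.07. Relative to the median of all genes under that scaling, they were at -0.71, -0.68 and -0.48, and *Ctnnb1*, *Rspo3*, *Tcf7l2* and *Dkk3* at 0.74, 0.61, 0.57 and 0.54. With the median set on the genes that passed, chosen after seeing the data, 11 of 25 members had an adjusted p under 0.05, beside 2003 of 10600 genes. All 7 members beyond 1.3-fold were among the 11, and *Dkk3* was no longer beyond 1.3-fold on both arrays.

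*Ctnnb1* is the only member on chromosome 9, which also carries *Zbtb16*, and their probes lie 72.4 Mb apart in mm9.

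Beyond the members, 61 other genes of the pathway were read from the same fit, and 41 of them passed the filter. Of these, 2 (4.88%) were higher beyond 1.3-fold on both arrays and 0 lower, beside 2.58% and 0.736% of all genes tested. By limma 16 of the 41 had an unadjusted p under 0.05, beside 27.8% of all genes. Nothing particular to the pathway is read from these counts. *Csnk1d*, a casein kinase that acts on several proteins of the pathway, had log2 ratios of 0.65 and 0.62, and *Gpc4*, a glypican of the cell surface that binds Wnt ligands, had 0.54 and 0.55. With the mean over probes 0 other pathway genes were higher, so neither kept its call. Of the genes that passed but were not beyond 1.3-fold on both arrays at the brightest probe, the largest means were those of *Gsk3b*, the kinase that marks beta-catenin for destruction, at 0.33 and 0.48, and the corepressor *Tle4* at 0.46 and 0.31. On the lower side the largest in size were those of *Nkd1*, an inhibitor that binds Dishevelled, at -0.30 and -0.59 and *Dvl3*, a Dishevelled gene, at -0.55 and -0.22.

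By role, 12 of 16 cytoplasmic transducers passed and 1 was higher, 4 of 9 genes of co-receptors and receptor turnover passed and 1 was higher, and in the other roles 0 of those that passed were beyond 1.3-fold on both arrays. *Btrc*, the ubiquitin ligase subunit that binds marked beta-catenin, had 0.52 and 0.40 but missed the filter with wild type signals of 196 and 198. Of the 7 listed target genes of the canonical branch outside the members, 5 passed and 0 of these were beyond 1.3-fold on both arrays. *Sp5* had 0.07 and -0.08 and *Ccnd1* had -0.04 and 0.26. Their median was -0.02 on array 1 and -0.08 on array 2, and *Notum*, a feedback inhibitor that strips the lipid from Wnt ligands, had -0.28 and -0.07.

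Marker genes of the tissues were read beside the members, with signals summed over every gene of a list and medians taken over those that passed. Forebrain markers were present and hindbrain markers were mostly near background: of 9 forebrain markers 5 passed, and of 6 hindbrain markers 0 did. The forebrain signals summed to 4425 and 3176 in wild type and 4801 on both arrays in *Plzf* lu/lu, with *Lhx2* the brightest and *Six3* and *Dlx2* higher beyond 1.3-fold on both arrays. The hindbrain signals summed to 67 and 78 in wild type and 39 and 45 in *Plzf* lu/lu. The brightest in wild type was *Gbx2*, at log2 ratios of -2.25 and -1.96. Without *Gbx2* they summed to 32 and 40 in wild type and 32 and 35 in *Plzf* lu/lu, and *Hoxa2*, *Hoxb1*, *Hoxb2*, *Hoxa3* and *Egr2* were not well above background in all 4 channels. Midbrain and isthmus markers, of which 4 of 9 passed, summed to 4003 and 4599 in wild type and 2845 and 3219 in *Plzf* lu/lu. The brightest of them, *En2*, had log2 ratios of -1.86 and -1.25, and *Cnpy1*, which missed the signal filter in *Plzf* lu/lu but was well above background, had -1.29 and -1.08. Without *En2* the sums were 2086 and 2289 in wild type and 2318 and 2245 in *Plzf* lu/lu. The median of the 4 that passed, *En2* among them, was 0.19 and -0.01. *Fgf8* had 0.40 and 0.19, *Dmbx1* had 0.60 and 0.17, and *En1* was not well above background in all 4 channels. Whether these differences bear on *Fzd10*, *Rspo1* or *Wnt3a* was not tested.

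Dorsal midline markers, of which 5 of 8 passed, summed to 11409 and 11640 in wild type and 13763 and 11900 in *Plzf* lu/lu. *Msx1* was the brightest, *Bmp4* was higher beyond 1.3-fold on both arrays, and *Gdf7*, which defines the roof plate, was not well above background in all 4 channels. Its signals were 22.6 and 15.6 in wild type and 5.658 and 2.31 in *Plzf* lu/lu, too near background for a ratio to be read. The passing genes of the dorsal list, which leave out *Gdf7*, had a median of 0.31 and 0.02, and *Lmx1a* among them had -0.35 and 0.30. Whether the list bears on the lower *Wnt3a*, *Rspo1* and *Fzd10*, which are known from the dorsal neural tube, was not tested. Ventral midline markers summed to 1657 and 1859 in wild type and 2257 and 3321 in *Plzf* lu/lu, with 3 of 6 passing. Of these, *Shh*, the brightest, and *Foxa2* were higher beyond 1.3-fold on both arrays, while *Nkx6-1* had -0.70 and 0.01. The median of the 3 that passed was 0.72 and 1.03. Without *Shh* the sums were 1122 and 1182 in wild type and 1136 and 1936 in *Plzf* lu/lu. The part of either list in the members' ratios was not tested.

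Some marker lists, like some ligands, gave unlike ratios on the arrays, although not in every gene. Neural progenitor markers, 10 of 11 passing, summed to 43153 and 41166 in wild type and 43372 and 53130 in *Plzf* lu/lu, with *Vim* the brightest and *Sox2* and *Cdh2* higher beyond 1.3-fold on both arrays. Neuron markers, 9 of 10 passing, summed to 8423 and 7358 in wild type and 8752 and 11585 in *Plzf* lu/lu, with *Elavl4* higher. The brightest neuron marker, *Stmn2*, had log2 ratios of -0.04 and 0.60, and the list's median was 0.14 and 0.60, where *Wnt7a* and *Wnt7b* also had the larger ratio on array 2. The medians were 0.12 and 0.42 for the progenitor list and 0.51 and 0.47 for the forebrain list, whose passing genes ranged from *Lhx2* at -0.18 and 0.86 to *Rax* at 1.28 and -0.16. Surface ectoderm markers, 7 of 11 passing, summed to 9454 and 13075 in wild type and 13899 and 10320 in *Plzf* lu/lu. The brightest of these, *Krt18*, had 0.69 and -0.34 and the list's median was 0.46 and -0.30, with *Krt14* the other way at -0.01 and 0.53, where *Wnt4* and *Wnt6* had the larger ratio on array 1. Whether these lists bear on those ligands was not tested.

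The remaining lists describe cells around the neural tube. Endothelial markers, 3 of 11 passing, summed to 5362 and 5995 in wild type and 4502 and 4179 in *Plzf* lu/lu, with *Egfl7* the brightest. Without *Egfl7* they summed to 1675 and 1853 in wild type and 1205 and 1070 in *Plzf* lu/lu. Of those that passed, *Emcn* was lower beyond 1.3-fold on both arrays, and the median was -0.28 and -0.68. With the well-above-background filter 6 of the 11 (54.5%) were lower, beside 2.07% of all genes: *Kdr*, *Tek*, *Tie1*, *Emcn*, *Esam* and *Eng*. Mesenchyme and neural crest markers, 9 of 12 passing, summed to 17262 and 14823 in wild type and 17524 and 13443 in *Plzf* lu/lu, with *Col1a2* the brightest. Of those that passed, 0 were beyond 1.3-fold on both arrays. *Sox10*, which missed the signal filter but was well above background, was lower beyond 1.3-fold on both, at -0.39 and -0.65. *Foxd3* was not well above background in all 4 channels. The endothelial sum was lower in *Plzf* lu/lu on both arrays and the mesenchymal sum on array 2 only. Erythroid markers, 6 of 9 passing and led by *Hbb-y*, summed to 467386 and 194405 in wild type and 250645 and 237451 in *Plzf* lu/lu, and the log2 ratio of the sums was -0.90 on array 1 and 0.29 on array 2. Macrophage markers, 3 passing of 5 on the array, summed to 2798 and 2486 in wild type and 2267 and 2310 in *Plzf* lu/lu, with *Ptprc* the brightest. Their part in the members' ratios was not tested.

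Promoter sequences from RefSeq (GRCm38.p6, 250 bases before to 50 after each gene start) were found for 32 of the 50 members, 5 of them among the 7 beyond 1.3-fold. *Dkk3* and *Rspo3* had no entry. The core sequences read by Tcf and Lef factors, CTTTGAA and CTTTGAT as well as CTTTGTA and CTTTGTT, were searched on both strands. Of the matched members 7 (21.9%) held at least 1 of them: *Dkk1*, *Fzd7*, *Lef1*, *Tcf7l2*, *Wnt3*, *Wnt5b* and *Wnt11*. Over all promoters 5121 of 27025 genes (18.9%) did, so the members' share is near that of all genes. A match is a description of letters and not a binding site.

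*Tcf7l2* was the only member beyond 1.3-fold with a match, and its window at a downstream start (chr19:55895071-55895370, plus strand) is printed with the match at position 237 in capitals. It holds 42% GC and 7 CG pairs.
Tcf7l2: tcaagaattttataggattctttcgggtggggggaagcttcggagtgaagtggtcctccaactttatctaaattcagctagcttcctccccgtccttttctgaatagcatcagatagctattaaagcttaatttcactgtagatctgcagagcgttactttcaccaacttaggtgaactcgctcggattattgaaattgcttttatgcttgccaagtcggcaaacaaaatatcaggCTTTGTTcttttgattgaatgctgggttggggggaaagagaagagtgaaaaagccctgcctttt

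The 3 lower members are printed beside it, since they differ in the same direction and none of their windows holds a match on either strand, which says only that these letters are not there. All lie on the plus strand, in lower case throughout: *Fzd10* at chr5:128600856-128601155, *Rspo1* at chr4:124986180-124986479 and *Sfrp2* at chr3:83766071-83766370.
Fzd10: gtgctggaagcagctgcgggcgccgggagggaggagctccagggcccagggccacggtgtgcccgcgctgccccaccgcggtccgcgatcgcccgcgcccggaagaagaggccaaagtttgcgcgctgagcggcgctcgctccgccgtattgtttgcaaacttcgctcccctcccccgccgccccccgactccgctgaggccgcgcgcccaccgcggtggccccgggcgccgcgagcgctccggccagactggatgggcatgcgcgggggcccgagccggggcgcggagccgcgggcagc
Rspo1: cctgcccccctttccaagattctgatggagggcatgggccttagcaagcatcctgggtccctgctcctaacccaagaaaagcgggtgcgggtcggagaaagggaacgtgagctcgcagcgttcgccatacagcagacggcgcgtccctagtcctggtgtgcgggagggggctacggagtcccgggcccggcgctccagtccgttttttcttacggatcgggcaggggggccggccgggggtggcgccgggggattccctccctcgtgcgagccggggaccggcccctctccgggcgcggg
Sfrp2: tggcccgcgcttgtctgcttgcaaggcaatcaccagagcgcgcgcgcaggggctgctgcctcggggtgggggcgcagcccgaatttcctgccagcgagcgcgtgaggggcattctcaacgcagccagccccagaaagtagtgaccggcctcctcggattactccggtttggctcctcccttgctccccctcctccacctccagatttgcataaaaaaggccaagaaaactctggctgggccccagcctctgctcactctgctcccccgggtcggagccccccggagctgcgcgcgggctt
*Fzd10* has 77.7% GC and 45 CG pairs, *Rspo1* has 69% and 29, and *Sfrp2* has 66% and 22, where the median promoter has 52.7% and 7. This does not set the lower members apart: the first window of the higher *Ctnnb1* has 75.3% and 46, and the other start of *Tcf7l2*, without a match, has 70% and 34.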

How the data were processed

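Samples were 2 two-colour arrays (Agilent SurePrint G3 mouse v2), each with 1 wild type sample in Cy3 and 1 *Plzf* lu/lu sample in Cy5. The deposited processed signals are fluorescence intensity values, to which the authors applied background subtraction and dye normalization (LOWESS) in Feature Extraction. The deposited value table holds log2 ratios made by the authors, mutant over wild type, and was within 0.005 of the ratio of the processed signals for the members. Per array, 59305 gene spots were read. On array 1 62.3% were well above background in wild type and 73.4% in *Plzf* lu/lu, and on array 2 74.4% and 74.7%.

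Here the log2 ratio of the processed signals was taken per probe, control spots were left out, and the brightest probe stood for a gene. Genes whose 4 channels all had a signal over 200 and signal-to-noise of at least 5 were tested with limma 3.58.1 (moderated test, two-sided, Benjamini-Hochberg over all genes tested), and counted when each array went beyond 1.3-fold with a shared sign. R 4.3.3, version 1.17.8 of data.table, Python 3.11.15 and matplotlib 3.10.9 were used.

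The members and all gene lists were chosen with earlier results of these data known, and some genes of the marker lists are not reported here. Genes named are the members that passed, every member beyond 1.3-fold, failing members by role, pathway genes beyond 1.3-fold with the pair of largest mean among the rest in each direction, and the brightest gene of each marker list; other genes were named after their values were seen. Alternatives were normexp (offset 50) with loess or median centring, the deposited ratios, other filters, all probes of a gene averaged or read singly, removal of the GC trend (lowess, span 0.67), other fold rules, no replicate block, eBayes with trend, and leaving out each array.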

Additional observations from a re-analysis of the deposited data

How the results depend on the processing

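Over 9 alternatives with both arrays, the 7 members beyond 1.3-fold kept their sign in 61 of 63 cases and their call in 56. Several alternatives leave a gene's value as it is; in the 31 cases in which it moved by more than 0.005, the sign was kept in 29 and the call in 24. Of the 43 other members, 28 changed the sign of the mean at least once. The cause was not tested for any change. With normexp and the median of all gene spots, 16 members and 25 other pathway genes were higher and 0 members lower, 20 members had a limma adjusted p under 0.05 (of all 10600 genes, 6698 higher and 9643 by limma), the members' median was 0.57, and *Sfrp2* reversed to 0.072. With normexp and the median of passing genes, chosen after seeing the data, 11 members had an adjusted p under 0.05 (2003 of all genes), 1 other pathway gene was lower and the median was 0.027. The median was 0.048 with well above background as the filter and 0.17 with the filter in 1 channel of each array. With no filter 1 other pathway gene was lower, as was 1 with the GC trend removed. With the mean over probes 1 member and 0 other pathway genes were higher, the median was 0.015 over the 22 members that passed, and *Dkk3* reversed to -0.0023, a mean that takes in a probe not well above background (124 of all genes higher). At 1.5-fold on both arrays 1 member was higher, 1 lower and 1 other pathway gene higher (41 and 12 of all genes higher and lower). With the mean of the arrays beyond 1.3-fold 4 other pathway genes were higher and 2 lower (498 and 245 of all genes). Leaving out each array in turn gave 7 to 8 members higher, 3 to 6 other pathway genes higher, 1 to 4 lower, and a median of 0.0052 to 0.074, with 477 to 875 of all genes higher and 208 to 592 lower. Without the replicate block, and with eBayes trend, limma gave 0 members and 0 of all genes. The adjusted p of *Rspo3* ranged from 1.4e-14 to 0.505 over the alternatives. Low signal limits the 25 members under the filter.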
